A study of Homo sapiens with 9 samples.

Results

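The genes described here are serum response factor (SRF), its coactivators MRTFA and MRTFB, and 7 contractile genes that SRF is known to control: ACTA2, ACTG2, TAGLN, CNN1, CNN2, MYL9 and TPM1. They were chosen by name, with earlier results of these data known. All 10 passed the filter on low counts, out of 19426 genes that did so and 37196 with a count in any library. The RNA came from hTERT-MSC, a human cell line of adipose mesenchymal stem cells made immortal with telomerase. Cells were starved of serum overnight and placed on inserts with pores of 3 µm. After 2 h they were moved above medium with PDGF-BB at 50 ng/mL, a growth factor that attracts mesenchymal cells, for 1 h. All groups carry the PDGF-BB label, so no library shows the cells without it. There were 3 libraries of pseudopodia, the processes scraped from the lower side of the membrane, 3 of cell bodies, scraped afterwards from the upper side, and 3 of whole cells, whose collection is not described separately. The labels name 1 line and do not say that replicates were separate cultures, so p-values measure only the spread between these libraries, which may be technical.

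SRF binds CArG boxes, short sequences with a core rich in A and T, as a pair of identical subunits. Its actin-regulated coactivators MRTFA and MRTFB are held in the cytoplasm by unpolymerised actin, and enter the nucleus when actin is driven into filaments. Ternary complex factors of the ELK group join SRF at immediate early genes such as FOS, downstream of MAP kinase. In smooth muscle, pericytes and contractile mesenchymal cells, SRF with its coactivators drives actins, calponins, transgelin, tropomyosins and myosin light chains.

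CArG boxes were searched on both strands of the RefSeq promoter windows (GRCh38.p14), which run from 250 bases before to 50 bases after an annotated start. The motif was CC, then 6 bases that are each A or T, then GG, which reads the same way on both strands. It occurred in 454 of 35116 windows (1.293%), and 11 windows (0.03132%) held 2 or more. Of the 10 genes, 8 had 15 windows between them, and TAGLN and MYL9 had no entry. SRF, ACTG2 and CNN2 held exact boxes. These windows are printed because they hold the boxes themselves, together with the ACTA2 window that held a pair of near matches. Capitals mark the boxes, and in ACTA2 the 10-base matches with 1 mismatch.

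SRF, chr6:43171019-43171318, plus strand: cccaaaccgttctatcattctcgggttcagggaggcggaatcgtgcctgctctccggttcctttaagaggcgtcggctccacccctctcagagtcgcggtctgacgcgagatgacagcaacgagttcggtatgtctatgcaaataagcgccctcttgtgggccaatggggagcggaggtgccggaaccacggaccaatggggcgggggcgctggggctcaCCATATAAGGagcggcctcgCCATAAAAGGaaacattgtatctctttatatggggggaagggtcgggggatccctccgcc

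ACTG2, chr2:73892758-73893057, plus strand: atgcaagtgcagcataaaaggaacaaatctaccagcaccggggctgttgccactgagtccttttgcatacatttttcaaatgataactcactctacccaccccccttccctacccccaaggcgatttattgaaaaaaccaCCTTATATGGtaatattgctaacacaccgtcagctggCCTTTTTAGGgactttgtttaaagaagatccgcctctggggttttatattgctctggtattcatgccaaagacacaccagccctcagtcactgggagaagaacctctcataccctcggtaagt

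CNN2, chr19:1026358-1026657, plus strand: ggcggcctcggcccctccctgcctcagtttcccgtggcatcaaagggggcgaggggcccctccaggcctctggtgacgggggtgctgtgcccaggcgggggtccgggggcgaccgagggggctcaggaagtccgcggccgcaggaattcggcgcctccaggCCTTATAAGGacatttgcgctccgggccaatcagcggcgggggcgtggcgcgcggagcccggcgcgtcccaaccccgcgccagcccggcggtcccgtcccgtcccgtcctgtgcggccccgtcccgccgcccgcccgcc

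ACTA2, chr10:88952724-88953023, minus strand: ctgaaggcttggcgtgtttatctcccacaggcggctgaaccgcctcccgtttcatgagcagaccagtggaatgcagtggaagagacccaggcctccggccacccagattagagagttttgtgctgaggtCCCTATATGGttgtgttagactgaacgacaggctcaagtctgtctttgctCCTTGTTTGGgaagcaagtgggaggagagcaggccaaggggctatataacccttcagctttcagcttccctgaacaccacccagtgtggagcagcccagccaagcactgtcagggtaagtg

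Positions of boxes are those of their first base, counted from the annotated start, which lies 250 bases into each window. In SRF, the boxes began at -30 (CCATATAAGG) and at -10 (CCATAAAAGG). In ACTG2, the boxes began at -110 (CCTTATATGG) and at -73 (CCTTTTTAGG). The single box of CNN2 began at -89 (CCTTATAAGG). The ACTA2 near matches began at -121 and -71, and such matches are common, with 1 or more in 17.92% of all windows. No exact box was found in the windows of ACTA2, MRTFA, MRTFB, CNN1 or TPM1. Among other genes of the pathway, 6 of 17 smooth muscle contractile genes with a window held a box, as did 4 of 12 cytoskeletal and adhesion targets and 2 of 5 early gene targets. Over all 27305 genes with a window, 438 (1.604%) held one. Genes differ in their number of windows, and more windows give more places for a match. By window, 6 of 48, 6 of 17 and 2 of 7 in these lists held a box, against 1.293% of all windows. The cytoskeletal and early gene lists are of known SRF targets, so their shares are a description only. A match is a description of letters in a window and does not show that SRF binds there.

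**Figure D1:**
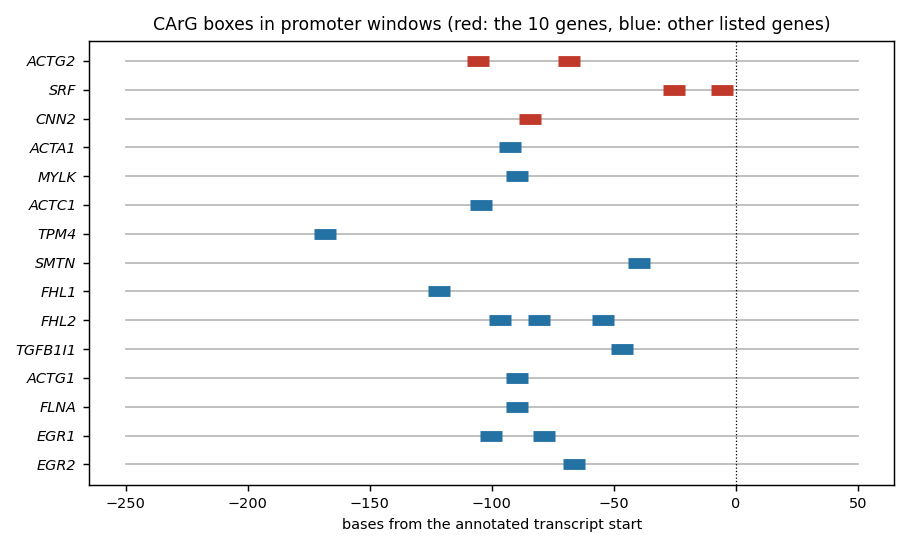
Positions of exact CArG boxes (blocks, to scale) along promoter windows from 250 bases before to 50 bases after the annotated start (dotted line), for each gene with a box in the lists reported, with the 10 genes in red and other listed genes in blue. Boxes of several windows of 1 gene share a line, and the leftmost pair of FHL2 blocks is 1 box measured from different starts; all boxes lie upstream of the start, with those of SRF nearest to it among the 10 genes.

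Library totals ran from 55469030 to 83894938 counts. Replicates spread unequally, with a biological coefficient of variation of 33.0% in pseudopodia, 17.6% in cell bodies and 5.08% in whole cells. Across genes, the deviation from the group mean was related to GC content in pseudopodia replicate 2 (Pearson r = -0.56) and, with the opposite sign, in replicate 3 (r = 0.57), against -0.13 to 0.069 in the other 7 libraries. The 5 mesenchymal stem cell markers NT5E, THY1, ENG, PDGFRB and CD44 were present in every library. Their summed level was 1913 to 2214 CPM in pseudopodia, 3912 to 4858 CPM in cell bodies and 2919.6 to 2954 CPM in whole cells. Of 7 smooth muscle and pericyte markers, all were tested, with summed levels of 248 to 365 CPM in pseudopodia, 323 to 533 CPM in cell bodies and 219 to 235 CPM in whole cells. Most of this sum was NOTCH3 and CSPG4, while MYH11 reached at most 1.85 CPM and DES at most 0.772 CPM. The 4 haematopoietic markers summed to 65.0 to 80.5 CPM in pseudopodia, 73.2 to 83.5 CPM in cell bodies and 66.8 to 69.4 CPM in whole cells. Most of that was CD34, at 60.6 to 77.4 CPM in pseudopodia, 62.9 to 71.7 CPM in cell bodies and 63.9 to 67.1 CPM in whole cells, while PTPRC, the pan-leukocyte marker, lay at or under 0.408 CPM everywhere and HBB did not pass the filter. CD14 had 3.03 to 4.28 CPM in pseudopodia, 10.2 to 12.6 CPM in cell bodies and 2.15 to 2.54 CPM in whole cells, and was called lower in pseudopodia than in cell bodies (log2 -1.71), higher in pseudopodia than in whole cells (log2 0.57) and higher in cell bodies than in whole cells (log2 2.28). Endothelial markers summed to 54.6 to 66.9 CPM in pseudopodia, 72.9 to 100.1 CPM in cell bodies and 73.3 to 75.6 CPM in whole cells. Most of the endothelial sum was TEK, and KDR did not pass the filter. Epithelial markers summed to 255 to 366 CPM in pseudopodia, 254 to 291 CPM in cell bodies and 146 to 160 CPM in whole cells. Nearly all of the epithelial sum was KRT8 and KRT18, while CDH1 reached at most 0.570 CPM and EPCAM did not pass the filter. Skeletal and cardiac muscle markers summed to less than 1 CPM in every library. The 5 nuclear retained RNAs listed, among them NEAT1, MEG3 and MALAT1, summed to 208 to 215 CPM in pseudopodia, 338 to 436 CPM in cell bodies and 849 to 881 CPM in whole cells. Of these, NEAT1 averaged 128 CPM in pseudopodia, 124 CPM in cell bodies and 433 CPM in whole cells. MEG3 averaged 16.1 CPM in pseudopodia and 157 CPM in cell bodies, and MALAT1 lay at or under 1.23 CPM in both fractions. The part of these differences in the values that follow was not tested. In bulk RNA of these fractions, the place of an RNA within cells, its amount per cell and the number of cells that hold it cannot be told apart.

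Within the SRF group, SRF itself was higher in pseudopodia than in cell bodies and whole cells, MRTFA was higher in both scraped fractions than in whole cells, and MRTFB was lower in pseudopodia than in either other group. Of the contractile genes, CNN1 rose in pseudopodia against both, MYL9 and TPM1 rose against whole cells, and ACTA2, ACTG2 and CNN2 passed this test in no comparison. TAGLN was called in 1 comparison, cell bodies over whole cells. Calls are Benjamini-Hochberg adjusted p-values under 0.05 over all tested genes, in edgeR's quasi-likelihood test. Levels are CPM, counts divided by the library total times its TMM factor, and ± after a level is the SD over 3 libraries.

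SRF (ENSG00000112658, GRCh38 chr6:43171299-43181507, plus strand) had 104, 96.0 and 129 CPM in pseudopodia, against 58.8, 64.6 and 64.5 CPM in cell bodies and 39.1, 41.0 and 42.8 CPM in whole cells. Every pseudopodia library lay above every cell body library, and every cell body library above every whole-cell library. It rose 1.75-fold in pseudopodia over cell bodies, or 0.80 ± 0.13 as log2 with its SE (adjusted p = 0.00065, edgeR's quasi-likelihood test). Over whole cells it rose 2.67-fold (log2 1.42 ± 0.13, adjusted p = 6.8e-06, same edgeR test), and in cell bodies over whole cells 1.53-fold (log2 0.61 ± 0.13, adjusted p = 0.0046). These comparisons share libraries and are not independent. SRF was called in the same direction under all 16 alternatives to the processing in each comparison, with log2 fold changes of 0.50 to 0.89 between pseudopodia and cell bodies.

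MRTFA (ENSG00000196588, chr22:40410281-40636702, minus strand), the actin-sensing coactivator also known as MKL1, had 129, 117 and 177 CPM in pseudopodia, 128, 165 and 145 CPM in cell bodies, and 58.8, 60.6 and 60.6 CPM in whole cells. The pseudopodia and cell body ranges overlapped, and both lay wholly above whole cells. MRTFA rose 2.35-fold in pseudopodia over whole cells (log2 1.23 ± 0.16, adjusted p = 7.6e-05, edgeR's quasi-likelihood test) and 2.43-fold in cell bodies over whole cells (log2 1.28 ± 0.16, adjusted p = 0.0002). Between pseudopodia and cell bodies its log2 fold change was -0.05 ± 0.16 (adjusted p = 0.83), so the interval of 1 SE covers small shifts in either direction. It was called lower there by limma-voom with sample weights and after GC and length correction (log2 -0.23 in both, adjusted p = 0.027 and 0.044).

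MRTFB (ENSG00000186260, chr16:14071321-14266773, plus strand), the paralogous coactivator also known as MKL2, had 20.7, 26.2 and 18.0 CPM in pseudopodia, 22.8, 47.2 and 42.8 CPM in cell bodies, and 40.7, 36.2 and 39.7 CPM in whole cells. All pseudopodia libraries lay below whole cells, whereas cell body replicate 1 fell inside the pseudopodia range and below the other cell body libraries. MRTFB fell in pseudopodia against cell bodies (log2 fold change -0.80 ± 0.25, adjusted p = 0.026, edgeR's quasi-likelihood test) and against whole cells (log2 -0.84 ± 0.25, adjusted p = 0.013). The call against cell bodies did not pass without pseudopodia replicate 1 (adjusted p = 0.076) or 3 (0.109), without cell body replicate 2 (0.098) or 3 (0.082), or in a fit of the 6 pseudopodia and cell body libraries alone (0.078). The call against whole cells did not pass without pseudopodia replicate 3 (adjusted p = 0.069). In cell bodies against whole cells the log2 fold change was -0.05 ± 0.24 (adjusted p = 0.90).

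The coactivators were compared within each library as a ratio of TPM, the deposited level that is scaled by gene length as well as depth. MRTFA exceeded MRTFB 14.1-, 10.1- and 22.2-fold in pseudopodia, 12.7-, 7.91- and 7.66-fold in cell bodies and 3.28-, 3.79- and 3.46-fold in whole cells. Both scraped fractions lay above whole cells in all libraries, while pseudopodia and cell bodies overlapped. The log2 ratio differed by 2.07 between pseudopodia and whole cells and by 1.39 between cell bodies and whole cells (two-sided exact permutation test p = 0.1 each, the smallest that 3 against 3 allows, and 0.18 adjusted over 9 ratio tests). Between pseudopodia and cell bodies it differed by 0.68 (exact permutation p = 0.2, adjusted 0.3). MRTFA and MRTFB differ in GC content, at 61.3% and 44.2%. The lowest and highest pseudopodia ratios came from replicates 2 and 3, the libraries with opposite GC dependence. The part of that dependence in the ratios was not tested.

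**Figure D2:**
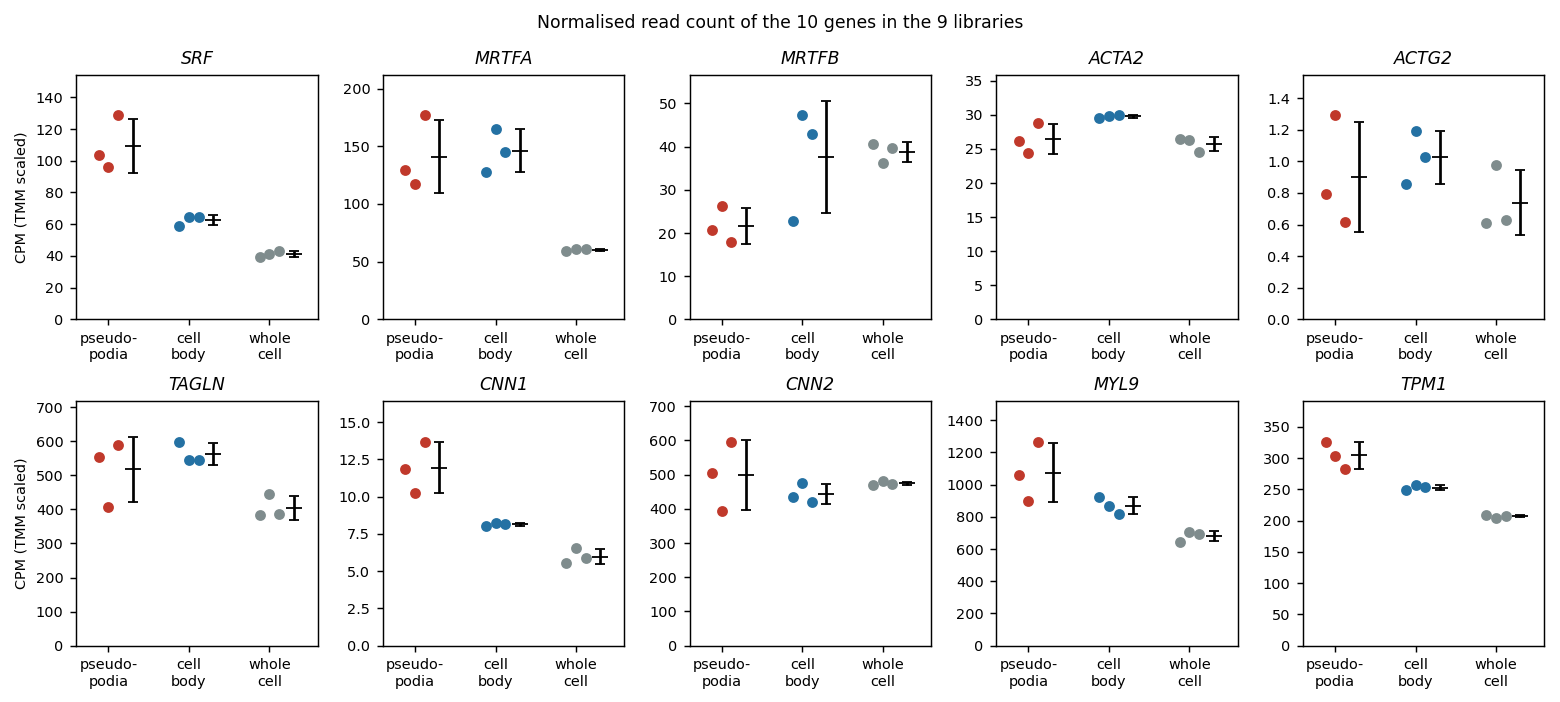
Normalised read count (CPM, linear axes from 0) of each of the 10 genes in 3 pseudopodia (red), 3 cell body (blue) and 3 whole-cell (grey) libraries, in replicate order within a group; black bars are mean ± SD, n = 3. SRF steps down over the groups without overlap, MRTFA is low in whole cells, and the pseudopodia points of many genes are the widest.

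ACTA2 (ENSG00000107796, chr10:88935074-88991339, minus strand), the smooth muscle alpha-actin that marks myofibroblasts, had 26.1, 24.4 and 28.7 CPM in pseudopodia, 29.6, 29.8 and 29.9 CPM in cell bodies, and 26.4, 26.3 and 24.5 CPM in whole cells. Each pseudopodia library was below each cell body library by a small margin, and pseudopodia and whole cells overlapped. Its log2 fold change was -0.17 ± 0.12 in pseudopodia over cell bodies (adjusted p = 0.28, edgeR's quasi-likelihood test) and 0.04 ± 0.12 over whole cells (adjusted p = 0.80). Other processing called ACTA2 lower in pseudopodia, against cell bodies by limma-voom (adjusted p = 0.034), and against both other groups on log2(TPM + 1) (adjusted p = 0.0029 and 0.0024) and after GC and length correction (adjusted p = 0.047 and 0.025). In cell bodies over whole cells it was called higher by limma-voom and in a fit of those 6 libraries (adjusted p = 0.015 and 0.021). ACTA2 is uncertain, because its exons share 380 bases with FAS, a death receptor gene on the opposite strand, and the strand setting of the counting is not given in the sources used here. FAS had 5.76, 10.2 and 2.39 CPM in pseudopodia, 29.5, 14.3 and 15.9 CPM in cell bodies, and 37.8, 37.5 and 35.5 CPM in whole cells. FAS exceeded ACTA2 in all 3 whole-cell libraries, with up to 145% of its counts, and moved between groups, and their part in the ACTA2 values was not tested.

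ACTG2 (ENSG00000163017, chr2:73892314-73919865, plus strand), the gamma-actin of enteric smooth muscle, was near the lower limit of the data, with 32 to 95 counts in pseudopodia, 50 to 72 in cell bodies and 39 to 67 in whole cells. These are 0.794, 1.29 and 0.617 CPM in pseudopodia, 0.857, 1.19 and 1.03 CPM in cell bodies, and 0.610, 0.977 and 0.630 CPM in whole cells. All 3 ranges overlapped, and a difference was not detectable at this depth (log2 -0.17 ± 0.31 in pseudopodia over cell bodies, adjusted p = 0.69, edgeR's quasi-likelihood test). In cell bodies over whole cells limma-voom called ACTG2 higher (adjusted p = 0.029). Its TPM was the lowest of the 10 genes in every group.

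Of 5 tested actin isoforms, 0 were called between pseudopodia and cell bodies by edgeR's quasi-likelihood test, 0 had an unadjusted p under 0.05, and 0 were called by DESeq2, but limma-voom with sample weights called 2 lower and limma on log2(TPM + 1) called 3 lower. Over all tested genes, 38.5% were called in either direction in that comparison. The cytoplasmic actins were abundant, with 2157, 1874 and 2557 CPM of ACTB in pseudopodia, 2614, 2773 and 2516 CPM in cell bodies, and 2032, 2211 and 2130.1 CPM in whole cells. ACTG1 averaged 3536 ± 722 CPM in pseudopodia, 3668 ± 58.1 CPM in cell bodies and 2925 ± 79.8 CPM in whole cells. The cardiac actin ACTC1 was called once, in pseudopodia over whole cells (log2 0.56 ± 0.17, adjusted p = 0.013, edgeR's quasi-likelihood test). That call did not pass by limma on log2(TPM + 1) (adjusted p = 0.63). The skeletal ACTA1 did not pass the filter.

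TAGLN (ENSG00000149591, chr11:117199321-117204782, plus strand) encodes transgelin, an actin-binding protein used as an early smooth muscle marker. It had 554, 408 and 589.7 CPM in pseudopodia, 599, 544 and 544 CPM in cell bodies, and 382, 445 and 385 CPM in whole cells. Pseudopodia overlapped cell bodies in replicates 1 and 3 and whole cells in replicate 2, and all cell body libraries lay above whole cells. TAGLN rose 1.39-fold in cell bodies over whole cells (log2 0.48 ± 0.15, adjusted p = 0.026, edgeR's quasi-likelihood test), a call that did not pass without cell body replicate 1 or whole-cell replicate 1 or 3 (adjusted p up to 0.099), or on log2(TPM + 1). Its log2 fold change in pseudopodia was -0.12 ± 0.15 over cell bodies (adjusted p = 0.56) and 0.36 ± 0.15 over whole cells (adjusted p = 0.057). The value over whole cells passed without pseudopodia replicate 2 (log2 0.51, adjusted p = 0.0036), with DESeq2 size factors (0.038), with no low-count filter (0.0068), by DESeq2 (0.04999) and by limma-voom (8.7e-05), whereas on log2(TPM + 1) it was -0.12. On that scale TAGLN was called lower in pseudopodia than in cell bodies (log2 -0.42, adjusted p = 0.021). It shares 446 exon bases with PCSK7, whose counts were at most 5.86% of those of TAGLN.

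CNN1 (ENSG00000130176, chr19:11538717-11550323, plus strand) encodes basic calponin, which restrains the myosin motor in differentiated smooth muscle. It had 11.9, 10.3 and 13.7 CPM in pseudopodia, 8.05, 8.25 and 8.18 CPM in cell bodies, and 5.53, 6.53 and 5.86 CPM in whole cells, so the groups stood in 3 separate ranges. It rose 1.46-fold over cell bodies (log2 0.55 ± 0.15, adjusted p = 0.015, edgeR's quasi-likelihood test) and 2.00-fold over whole cells (log2 1.00 ± 0.15, adjusted p = 0.00021). The call over cell bodies did not pass without cell body replicate 2 or 3 (adjusted p = 0.0504 and 0.0502), in a fit of those 6 libraries alone (0.053) or on log2(TPM + 1) (0.118). In cell bodies over whole cells it rose 1.37-fold (log2 0.45 ± 0.15, adjusted p = 0.038), and this call was lost when any 1 of the 6 cell body and whole-cell libraries was left out (adjusted p up to 0.144), on log2(TPM + 1) and after GC and length correction.

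CNN2 (ENSG00000064666, chr19:1026581-1039068, plus strand), the calponin of non-muscle cells, had 505, 393 and 596 CPM in pseudopodia, 435, 476 and 419 CPM in cell bodies, and 469, 480.1 and 472 CPM in whole cells. All 3 groups overlapped, and the log2 fold change was 0.17 ± 0.15 in pseudopodia over cell bodies (adjusted p = 0.41, edgeR's quasi-likelihood test). CNN2 was called lower in pseudopodia than in whole cells on log2(TPM + 1) (log2 -0.41, adjusted p = 0.012), and lower in cell bodies than in whole cells after GC and length correction (log2 -0.28, adjusted p = 0.015). Its 11 named pseudogene copies had at most 0.129% of its counts, although reads of such copies could have been assigned to either gene. The TPM ratio of CNN1 to CNN2 was 0.0302, 0.0335 and 0.0295 in pseudopodia, 0.0237, 0.0222 and 0.0250 in cell bodies, and 0.0151, 0.0175 and 0.0159 in whole cells. That ratio separated all 3 groups, by 0.39 on the log2 scale for pseudopodia over cell bodies and 0.94 over whole cells (exact permutation p = 0.1 each, the smallest possible, adjusted 0.18).

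MYL9 (ENSG00000101335, chr20:36541484-36551447, plus strand) encodes the regulatory myosin light chain that myosin light chain kinase acts on. It had 1057, 899 and 1267 CPM in pseudopodia, 924, 865 and 817 CPM in cell bodies, and 645, 707 and 691 CPM in whole cells. Pseudopodia replicate 2 fell inside the cell body range, and both fractions lay above whole cells. It rose 1.58-fold in pseudopodia over whole cells (log2 0.66 ± 0.14, adjusted p = 0.0017, edgeR's quasi-likelihood test). Over cell bodies its log2 fold change of 0.31 ± 0.14 was not called (adjusted p = 0.10), except without pseudopodia replicate 2, when it was 0.42 (adjusted p = 0.019), and by limma-voom with sample weights or after GC and length correction. In cell bodies over whole cells MYL9 was not called as reported, but was called higher with no low-count filter, by limma-voom, in a fit of those 6 libraries and after GC and length correction (adjusted p = 0.014, 0.0014, 0.0058 and 0.020).

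TPM1 (ENSG00000140416, chr15:63042632-63071915, plus strand) encodes a tropomyosin, which lies along actin filaments and gates myosin. It had 326, 304 and 282 CPM in pseudopodia, 248, 257 and 254 CPM in cell bodies, and 209, 205 and 208 CPM in whole cells. The 3 groups did not overlap. It rose 1.47-fold in pseudopodia over whole cells (log2 0.55 ± 0.11, adjusted p = 0.001, edgeR's quasi-likelihood test), and over cell bodies its log2 fold change of 0.27 ± 0.11 did not pass (adjusted p = 0.071). The value over cell bodies passed without pseudopodia replicate 3 (log2 0.32, adjusted p = 0.0097), by limma-voom (0.35, adjusted p = 0.00024) and after GC and length correction (0.43, adjusted p = 0.00024). In cell bodies over whole cells TPM1 was not called as reported, but 6 of the 16 alternatives called it higher, among them DESeq2 (adjusted p = 0.045). On log2(TPM + 1), the value over cell bodies was -0.02, and neither MYL9 nor TPM1 was called over whole cells (adjusted p = 0.13 and 0.43). That scale carries no TMM factors and is scaled by gene length, and the part of either in these values was not tested.

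As a group, 2 of the 10 genes were called higher in pseudopodia than in cell bodies and 1 lower, where 18.6% of all tested genes were called higher and 19.9% lower. These shares were near those of all genes, of which 38.5% were called in either direction. Against whole cells, 5 were called higher and 1 lower in pseudopodia, with 27.9% and 33.1% over all genes (61.0% in either direction). In cell bodies against whole cells, 4 were called higher and 0 lower, with 18.1% and 20.5% over all genes (38.6% in either direction). In that comparison 0 of the 10 were lower at an unadjusted p under 0.05, by DESeq2 or by limma-voom, and CNN2 was lower after GC and length correction. The median log2 fold change of the 10 genes was 0.06, 0.45 and 0.40 in these comparisons in turn, against -0.05, -0.12 and -0.06 for all tested genes. On log2(TPM + 1), the medians of the 10 genes were -0.19, 0.00 and 0.16, and those of all tested genes were -0.17, -0.34 and -0.15. The share of calls that were in the higher direction over all genes was 48.2%, 45.7% and 46.9% in the 3 comparisons, and 28.1%, 25.0% and 30.9% on log2(TPM + 1). By library ranges, 3 of the 10 genes lay wholly above cell bodies in pseudopodia and 1 wholly below, as did 22.6% and 24.5% of all genes. Against whole cells, 5 lay above and 1 below in pseudopodia (31.1% and 38.9% of all genes), and in cell bodies 7 lay above and 0 below (30.0% and 34.9%). Without pseudopodia replicate 2, 3 of the 10 were higher and 1 lower against cell bodies, and without replicate 3, 3 were higher and 0 lower. Of all genes called in those fits, 46.8% and 45.7% were in the higher direction, and the counts are a description only.

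**Figure D3:**
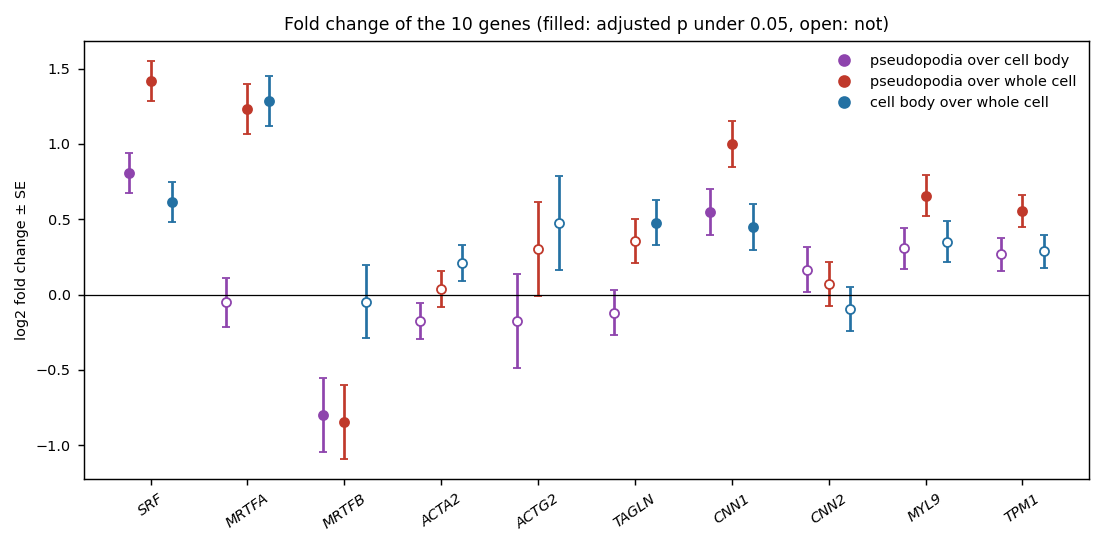
Log2 fold change ± SE of the 10 genes in each comparison (purple pseudopodia over cell body, red pseudopodia over whole cell, blue cell body over whole cell), from 1 edgeR fit over 9 libraries; filled points have adjusted p under 0.05. SRF and CNN1 are filled and above 0 in all 3 comparisons, and MRTFB is the gene with filled points below 0.

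The whole-cell level lay below both fractions for 8 of the 10 genes by group means, between them for CNN2 and above them for MRTFB. Over all tested genes, 33.9% lay below both, 25.2% between and 41.0% above. How the collection of whole cells differed from that of the fractions is not given in the sources used here.

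In the pseudopodia, 7 of the 10 genes had replicate 2 lowest and replicate 3 highest, with gene GC contents of 51.8% to 61.3%. MRTFB and ACTG2, at 44.2% and 52.6%, had the opposite order, and TPM1, at 45.9%, had replicate 1 highest and replicate 3 lowest. Apart from ACTG2, this order ran the same way as the GC dependence of those libraries given above. ACTG2 had a higher GC content than ACTA2, at 51.8%, but the opposite order, and had only 32 to 95 counts in pseudopodia. The part of the GC dependence in the spread of the 10 genes was not tested.

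Per length, MYL9 was the most abundant of the 10 in every group, at 1293 ± 167 TPM in pseudopodia, 1279 ± 70.3 TPM in cell bodies and 1132 ± 28.2 TPM in whole cells. CNN2 and TAGLN came next in every group without overlap. SRF ranked above TPM1 and MRTFA in pseudopodia, at 87.4 ± 9.92 TPM, with ranges of SRF and TPM1 overlapping, as did those of TPM1 and MRTFA. In cell bodies, SRF stood below MRTFA and TPM1, at 61.2 ± 3.47 TPM, and in whole cells it stood below TPM1 and above ACTA2, at 45.2 ± 1.36 TPM. MRTFB ranked low throughout, at 4.46 ± 1.04 TPM in pseudopodia, 9.38 ± 3.23 TPM in cell bodies and 11.0 ± 0.869 TPM in whole cells.

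Myocardin (MYOCD), the coactivator of cardiac and smooth muscle, was low in abundance, with 4.09, 4.12 and 3.95 CPM in pseudopodia, 0.223, 0.299 and 0.313 CPM in cell bodies, and 0.490, 0.569 and 0.404 CPM in whole cells. The pseudopodia libraries lay close together and far above all 6 others. MYOCD rose by a log2 fold change of 3.85 ± 0.23 over cell bodies (adjusted p = 5e-07, edgeR's quasi-likelihood test) and 3.05 ± 0.21 over whole cells (adjusted p = 7.8e-07). MYOCD thus had larger fold changes over both than any of the 10 genes.

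The ternary complex factor ELK1 had 142, 130.4 and 176 CPM in pseudopodia, 71.6, 97.0 and 92.0 CPM in cell bodies, and 44.4, 43.3 and 45.1 CPM in whole cells, in the same order of groups as SRF. It rose by 0.78 ± 0.15 on the log2 scale over cell bodies (adjusted p = 0.0019, edgeR's quasi-likelihood test) and by 1.76 ± 0.16 over whole cells (adjusted p = 4.1e-06). ELK3, a factor that can also repress, had 42.9, 61.6 and 19.1 CPM in pseudopodia, 78.6, 72.3 and 67.2 CPM in cell bodies, and 87.3, 85.8 and 87.6 CPM in whole cells. ELK3 was called lower against whole cells (log2 -1.08 ± 0.33, adjusted p = 0.019) and was not called against cell bodies (log2 -0.82 ± 0.33, adjusted p = 0.082). The ELK3 call did not pass with no low-count filter (adjusted p = 0.116), in a fit of those 6 libraries (0.060) or without whole-cell replicate 1 (0.051). ELK4 was called in no comparison as reported, with a log2 fold change of -0.33 ± 0.21 in pseudopodia over cell bodies (adjusted p = 0.25). Its pseudopodia libraries lay wholly below whole cells (log2 -0.43 ± 0.21, adjusted p = 0.10, same edgeR test). Over the 16 alternatives that value ran from -0.91 to 0.51, and 11 kept its direction and lack of a call. In cell bodies over whole cells it ran from -0.31 to 0.62, and 13 kept both. At least 1 alternative called ELK4 in each comparison.

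**Figure D4:**
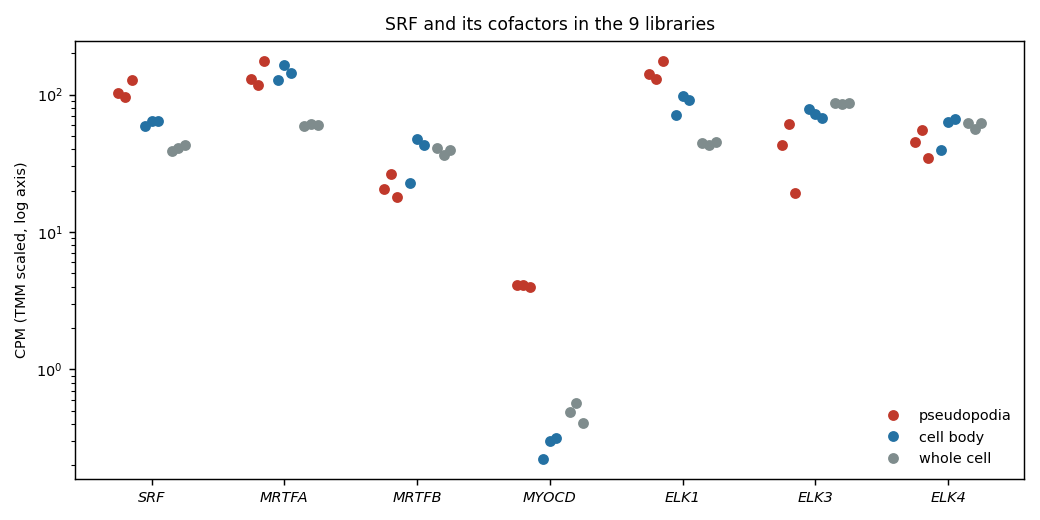
Normalised read count (CPM, log axis) of SRF, its coactivators MRTFA, MRTFB and MYOCD, and the ternary complex factors ELK1, ELK3 and ELK4, in 3 pseudopodia (red), 3 cell body (blue) and 3 whole-cell (grey) libraries. MYOCD lies near 4 CPM in all pseudopodia libraries and under 0.6 CPM in all others, while MRTFB and ELK3 are lowest in pseudopodia replicate 3.

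Of 18 other smooth muscle contractile genes tested, 9 rose and 1 fell in pseudopodia against cell bodies, with a median log2 fold change of 0.47, against -0.05 for all tested genes, of which 18.6% were called higher and 19.9% lower. Over the 16 alternatives 6 to 11 of them were higher and 0 to 3 lower. LMOD1, the leiomodin that nucleates actin filaments in smooth muscle, had 161, 131 and 181 CPM in pseudopodia, 45.9, 48.6 and 50.5 CPM in cell bodies, and 58.8, 56.7 and 57.5 CPM in whole cells. Its 3 pseudopodia libraries stood above all 6 others, and it rose by 1.71 ± 0.14 on the log2 scale over cell bodies (adjusted p = 3.6e-06, edgeR's quasi-likelihood test) and by 1.45 ± 0.14 over whole cells (adjusted p = 5.8e-06). SYNPO2, a Z-disc and actin-bundling protein, had 92.8, 100.5 and 60.2 CPM in pseudopodia, 31.1, 39.9 and 41.8 CPM in cell bodies, and 86.1, 77.2 and 82.8 CPM in whole cells. SYNPO2 rose over cell bodies (log2 1.17 ± 0.19, adjusted p = 0.00059), and its pseudopodia and whole-cell ranges overlapped. The smooth muscle myosin heavy chain MYH11 rose over cell bodies at a low level, with 1.56, 1.41 and 1.85 CPM in pseudopodia, 0.497, 0.597 and 0.883 CPM in cell bodies and 1.31, 1.27 and 1.15 CPM in whole cells (log2 1.27 ± 0.25, adjusted p = 0.0019). SYNPO2 and MYH11 were not called in pseudopodia over whole cells (adjusted p = 0.86 and 0.20, same edgeR test). Both were called lower in cell bodies than in whole cells (log2 -1.13 ± 0.19 and -0.90 ± 0.25, adjusted p = 0.0011 and 0.015). Of 15 alternatives, 12 kept that MYH11 call. Desmin (DES), the muscle intermediate filament, also rose over cell bodies (log2 1.81 ± 0.50, adjusted p = 0.014) but stayed at or under 0.772 CPM in every library.

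Beside TPM1, the other tropomyosins, named after their values were seen, were all called higher in pseudopodia than in cell bodies. TPM4 had 2549, 2514 and 2045 CPM in pseudopodia, 1067, 1109 and 1150.4 CPM in cell bodies, and 888, 924 and 890.5 CPM in whole cells (log2 1.10 ± 0.12 over cell bodies, adjusted p = 3.5e-05, edgeR's quasi-likelihood test). TPM3 and TPM2 rose by 0.62 ± 0.12 and 0.59 ± 0.14 on the log2 scale over cell bodies (adjusted p = 0.0015 and 0.0067), and the TPM2 call did not pass on log2(TPM + 1). CNN3, the calponin paralogue shared by many tissues, was the contractile gene that fell, with 292, 289 and 207 CPM in pseudopodia, 359, 362 and 353 CPM in cell bodies, and 258, 267 and 254 CPM in whole cells (log2 -0.45 ± 0.14 over cell bodies, adjusted p = 0.026). The CNN3 call was lost when any 1 of the cell body libraries was left out (adjusted p up to 0.068) and in a fit of those 6 libraries (0.070). Against whole cells, 11 of the 18 were called higher and 1 lower in pseudopodia (median log2 0.64, against -0.12 for all genes, of which 27.9% were called higher and 33.1% lower). In cell bodies against whole cells 7 were higher and 3 lower (median 0.34, against -0.06 for all genes, with 18.1% higher and 20.5% lower). Over the alternatives these counts ran over 7 to 14 higher and 0 to 3 lower in pseudopodia, and 4 to 10 higher and 1 to 4 lower in cell bodies. On log2(TPM + 1), 6 were higher and 3 lower in pseudopodia against cell bodies.

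Of 14 other cytoskeletal and adhesion targets of SRF and its coactivators, 2 rose and 4 fell in pseudopodia against cell bodies (median log2 -0.16, against -0.05 for all tested genes). These counts lay near the shares of all genes, 18.6% higher and 19.9% lower, and were 1 to 4 higher and 3 to 8 lower over the 16 alternatives. Against whole cells, 6 were higher and 3 lower in pseudopodia (median log2 0.25, against -0.12 for all genes, with 27.9% higher and 33.1% lower). In cell bodies against whole cells 3 were higher and 1 lower (median 0.09, against -0.06 for all genes, with 18.1% higher and 20.5% lower). Over the alternatives these counts were 4 to 7 higher and 3 to 6 lower in pseudopodia, and 3 to 7 higher and 1 to 3 lower in cell bodies. MYH9, the non-muscle myosin heavy chain, had 2930.1, 2651 and 3491 CPM in pseudopodia, 1428, 1818 and 1716 CPM in cell bodies, and 1639, 1557 and 1655 CPM in whole cells (log2 0.87 ± 0.14 over cell bodies, adjusted p = 0.00051, edgeR's quasi-likelihood test). TGFB1I1, a focal adhesion adaptor, rose by 0.49 ± 0.15 (adjusted p = 0.022), a call lost without pseudopodia replicate 1 or cell body replicate 3 (adjusted p = 0.060 and 0.0999), in a fit of those 6 libraries (0.069) and on log2(TPM + 1), where its log2 fold change was 0.19 (adjusted p = 0.22). The matricellular genes CCN1 and CCN2, which are also targets of YAP, moved the other way. CCN2 had 121, 85.5 and 109.6 CPM in pseudopodia, 405, 368 and 344 CPM in cell bodies, and 427, 456 and 429.6 CPM in whole cells (log2 -1.82 ± 0.14 over cell bodies, adjusted p = 3.5e-06). CCN1 had 93.9, 72.1 and 81.1 CPM in pseudopodia, 285, 223 and 195 CPM in cell bodies, and 1162, 1203 and 1146 CPM in whole cells, and fell against both (log2 -1.51 ± 0.16 and -3.83 ± 0.17). Vinculin (VCL), which links adhesions to actin, fell by 1.29 on the log2 scale against cell bodies (SE 0.17, adjusted p = 0.00011). The integrin subunit ITGA5 had a log2 fold change of -0.50 ± 0.18 against cell bodies (adjusted p = 0.045). That ITGA5 call did not pass without pseudopodia replicate 1 or 2 or cell body replicate 2 or 3 (adjusted p up to 0.157), by DESeq2 (0.061), with DESeq2 size factors (0.056) or in the fit of 6 libraries (0.059). ITGA5 had 593, 601 and 920 CPM in pseudopodia, 843, 1097 and 1044 CPM in cell bodies, 339, 342 and 335 CPM in whole cells. It was called higher than in whole cells in pseudopodia (log2 1.06 ± 0.18, adjusted p = 0.0004, edgeR's quasi-likelihood test) and in cell bodies (log2 1.55 ± 0.18, adjusted p = 0.00011).

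Of the early genes that SRF controls with ternary complex factors, FOS, a component of AP-1, was far lower in both fractions than in whole cells. FOS had 51.3, 36.2 and 46.3 CPM in pseudopodia, 88.6, 78.5 and 67.7 CPM in cell bodies, and 1736, 1803 and 1776 CPM in whole cells. It fell by 0.81 on the log2 scale in pseudopodia against cell bodies (SE 0.15, adjusted p = 0.0014, edgeR's quasi-likelihood test), and its log2 fold change against whole cells was -5.31 ± 0.18 (adjusted p = 1.2e-08). EGR3 ran the opposite way, with 598, 464 and 376 CPM in pseudopodia, 262, 288 and 241 CPM in cell bodies, and 65.4, 60.4 and 65.5 CPM in whole cells (log2 0.86 ± 0.16 over cell bodies, adjusted p = 0.0016). EGR2 fell against cell bodies (log2 -0.97 ± 0.16, adjusted p = 0.00071), and EGR1 had a log2 fold change of -0.53 ± 0.18 (adjusted p = 0.040). The EGR1 call did not pass without pseudopodia replicate 2 or 3 or cell body replicate 1 or 2 (adjusted p up to 0.161), by limma-voom (0.067) or in a fit of those 6 libraries (0.060). FOSB and IER2 were not called against cell bodies (log2 -0.36 ± 0.18 and -0.41 ± 0.16, adjusted p = 0.13 and 0.059). In all, 1 of the 6 rose and 3 fell against cell bodies (median log2 -0.47, against -0.05 for all tested genes, of which 18.6% were called higher and 19.9% lower). Against whole cells 1 rose and 4 fell (median -1.22, against -0.12 for all genes, with 27.9% higher and 33.1% lower). Over the alternatives 1 was higher in both comparisons, with 2 to 5 lower against cell bodies and 3 to 5 lower against whole cells.

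**Figure D5:**
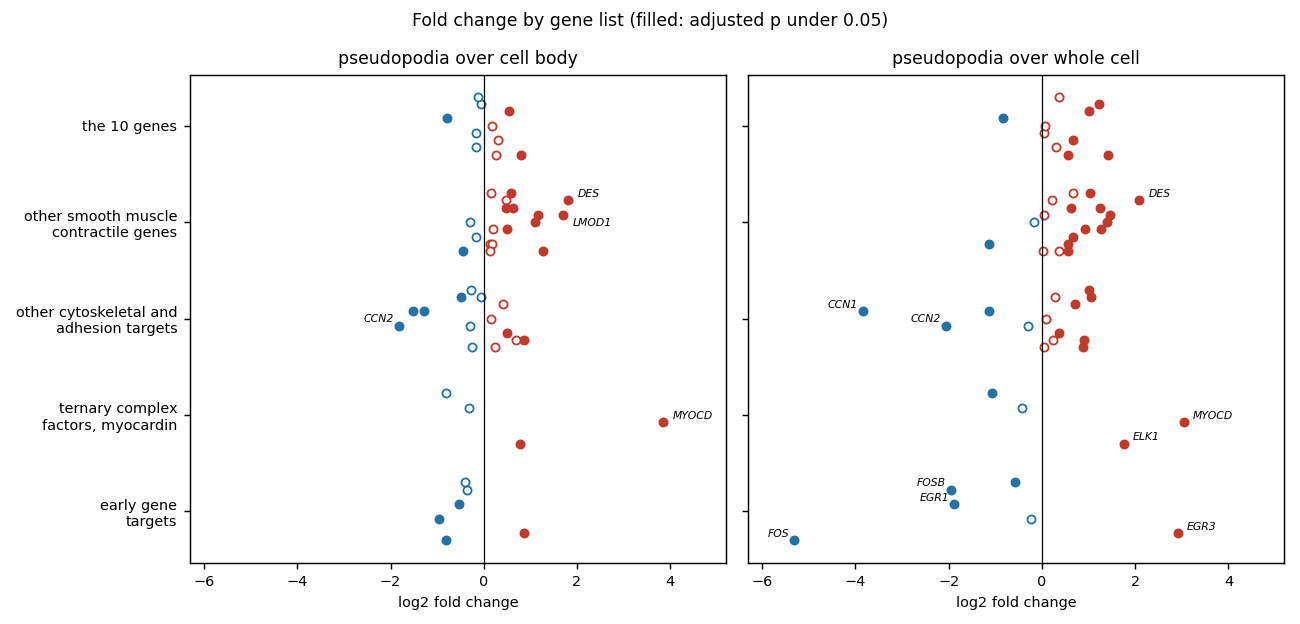
Log2 fold change of every tested gene in each list shown, in pseudopodia over cell body (left) and over whole cell (right), red above 0 and blue below, filled where adjusted p was under 0.05; vertical spread within a list only separates points, and genes beyond 1.6 in either direction are named. MYOCD stands farthest to the right in both panels, and FOS farthest to the left over whole cells.

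The profile of each gene over the 9 libraries was compared by the root mean square difference of log2 CPM, centred on the gene's own mean. The genes nearest to SRF were HDAC5 (0.0536), GTF2F1 (0.0608), SMG5 (0.0612), RASA3 (0.0699) and GPSM1 (0.0721), where the median over all tested genes was 0.798. The genes nearest to ACTA2 were ALDH7A1 (0.0618), HDAC1 (0.0623), RRAGB (0.0633), GNPDA1 (0.0655) and PFN2 (0.0680), with a median of 0.552. Among the 10 genes, CNN1 and MYL9 had the most similar profiles (0.157), and SRF and CNN1 differed by 0.185. SRF and MRTFB were farthest apart (1.00), followed by MRTFA and MRTFB (0.923). The 9 libraries share their group structure and GC dependence, so likeness in this measure is a description only.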

How the data were processed

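Per the labels, whole-number counts per gene were made by the authors with featureCounts and deposited with TPM values. GRCh38 and DESeq2 are named in the submitters' processing notes, while aligner, annotation release and strand setting are absent from the sources used here. Deposited TPM and counts were checked to come from the same counting. The table held 62709 genes and 1 blank line, which was left out.

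All 9 libraries entered 1 edgeR 4.0.16 fit (R 4.3.3; TMM factors, expression filter by group, robust quasi-likelihood test) with Benjamini-Hochberg adjustment over 19426 genes. Standard errors come from the test statistic. Since groups spread unequally, p-values may be too small where pseudopodia are compared. Profiles used log2 CPM with a prior count of 2. The test was also run on simulated counts with 1 spread per gene shared by all groups, which cannot show how the unequal spread affects the p-values. Ratios were compared by two-sided exact permutation tests. Positions came from GENCODE release 29 and promoters from RefSeq.

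The 10 genes, the gene lists and the rule for named genes were chosen with earlier results of these data known. The rule named all 10, the called genes of each list reported with the largest changes between pseudopodia and cell bodies (up to 4 in each direction), every actin isoform, SRF partner and early gene target, and the 5 genes nearest in profile to SRF and to ACTA2. A further list of upstream regulators is not reported here. Alternatives were other normalisation and tests (DESeq2 size factors, DESeq2 1.42.0, voom with sample weights in limma 3.58.1, and limma on log2 of TPM plus 1 or plus 0.1), other filters (none, or 5 CPM in 3 libraries), other designs (a replicate block, a fit of the 6 libraries compared, each library left out) and, chosen after seeing the data, a correction for GC content and length.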

Additional observations from a re-analysis of the deposited data

How the results depend on the processing

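Of the 10 genes, SRF kept its direction and call in all 3 comparisons under every alternative run, as did MRTFA in both fractions over whole cells and CNN1 in pseudopodia over whole cells. Reversals below concern log2 fold changes that were not called as reported. With a filter of 5 CPM, 7516 genes were called in pseudopodia against whole cells and 4667 in cell bodies against whole cells, against 11842 and 7501, since fewer genes were tested; limma-voom with sample weights called 11999 in the second. The pseudopodia over whole-cell values became -0.089 for ACTA2 and -0.062 for CNN2 with the 5 CPM filter. MRTFB in cell bodies over whole cells became 0.022 with no filter, 0.089 with voom and 0.20 after GC and length correction, which also gave -0.015 for ACTA2 there, and -0.23 for ACTA2 and -0.13 for CNN2 in pseudopodia over whole cells. On log2(TPM + 1) and on log2(TPM + 0.1), CNN2 (-0.14 in both) and TPM1 (-0.021 and -0.022) turned in pseudopodia over cell bodies. Over whole cells, ACTA2 (-0.41 and -0.42), ACTG2 (-0.082 and -0.18), TAGLN (-0.12 in both) and CNN2 (-0.41 in both) turned, and ACTA2 and CNN2 were then called lower (adjusted p = 0.0024 and 0.012 in both), as was ACTA2 after GC and length correction (0.025). The cause was not tested. These TPM carry no TMM factors and are scaled by gene length, and the part of either in the reversals is not known. The median of all genes also shifted, to -0.34 on log2(TPM + 1) and -0.56 on log2(TPM + 0.1) from -0.12 for pseudopodia over whole cells.

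Leaving out 1 library at a time, values turned in these ranges: pseudopodia over cell bodies, MRTFA -0.24 to 0.064, ACTG2 -0.53 to 0.026 and TAGLN -0.22 to 0.023; pseudopodia over whole cells, ACTA2 -0.017 to 0.099, ACTG2 -0.046 to 0.58 and CNN2 -0.069 to 0.22; cell bodies over whole cells, MRTFB -0.23 to 0.22. The log2 ratio of ACTA2 to ACTG2 was 0.07 in pseudopodia over cell bodies (range -0.23 to 0.42) and -0.22 over whole cells (-0.52 to 0.13). The correlation of deviations between same-numbered libraries was at most 0.090. Whether replicate numbers pair the libraries cannot be decided from it, since the GC dependence of pseudopodia replicates 2 and 3 enters those deviations. With the replicate block, 6920, 11494 and 6798 genes were called in the 3 comparisons, and of the calls on the 10 genes 1 was lost, CNN1 in cell bodies over whole cells (adjusted p = 0.074). Among the listed genes, the block also ended the calls of EGR1 in pseudopodia over cell bodies (adjusted p = 0.063), of TGFB1I1 in pseudopodia over whole cells (0.080), and of TPM2, CSRP2 and KRT8 in cell bodies over whole cells (0.055, 0.092 and 0.067). Over the 16 alternatives the 10 genes had 1 to 4 higher and 0 to 3 lower calls in pseudopodia against cell bodies, 3 to 6 higher and 0 to 3 lower in pseudopodia against whole cells, and 2 to 8 higher and 0 to 1 lower in cell bodies against whole cells. As reported, 38.5%, 61.0% and 38.6% of all tested genes were called in these comparisons. The number of all genes called moved with the setting too. Counts over the alternatives, here and for the other lists, are therefore a description only. ACTG2, with 32 to 95 counts in pseudopodia, is the member nearest the limit that depth sets.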
